A study of Yarrowia lipolytica with 9 samples.

Results

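*Yarrowia lipolytica* has a group of genes whose mean transcript level was higher in very acidic medium and differed little between the milder media. These are the genes high only at pH 2.0, and they number 240 of the 6127 nuclear protein-gene identifiers (those ending in g) among 6170 rows of the table. They were chosen by their measured values. The mean of log2(CPM + 1), where CPM is the authors' count scaled to the effective library size, had to be lower at pH 4.0 than at pH 2.0 by 1 or more. The means at pH 6.0 and pH 4.0 had to lie within 0.5 of each other, and the highest of the group means had to reach 10 CPM.

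The study grew strain W29 in bioreactors at different medium pH, with citric acid and lipid synthesis as its subject. The groups were pH 2.0, pH 4.0 and pH 6.0, each with 3 libraries (A, B and C), and they shared the strain, the medium and the sampling time of 50 hours. That medium held 50 g/L glucose, 1.7 g/L yeast nitrogen base, 1.5 g/L yeast extract and 1 g/L ammonium sulfate. Cultures were run in triplicate per the labels, and RNA was read from stranded libraries at a depth of 12974822 to 17701766 recovered reads. Libraries of 1 group differed by more than sampling noise (chi-square per degree of freedom of 8.76 to 55.1). In pH 2.0 library A most members were higher than in B and C, so differences of the leading and most abundant members are also given from B and C alone.

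As background, a yeast in acidic medium keeps its cytosol near neutral by pumping protons out through the plasma membrane, at the cost of ATP. Its cell wall, membrane transporters and secreted enzymes face the acid directly. Fungi also carry an ambient pH pathway, which ends in the zinc finger factor Rim101 (PacC in moulds) and switches genes between acidic and neutral or alkaline conditions. *Y. lipolytica* tolerates a wide pH range, and the acidity of the medium is known to shift its secreted products between citric acid and sugar alcohols.

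The identifiers are locus tags that neither the table nor the reference used here pairs with a name or a description (0 of 6127 matched). No role is therefore given to a member. The letter after YALI0 names the chromosome and the number follows the order of genes along it.

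Among the 6127 identifiers, 5536 reached 10 CPM in at least 1 group mean. Of these, 381 were lower at pH 4.0 than at pH 2.0 by 1 or more on the log2(CPM + 1) scale. The 240 members make up 63.0% of those 381. A further 81 were lower again by 0.5 or more at pH 6.0, and 60 were higher again by 0.5 or more. The plot of the pH 6.0 minus pH 4.0 difference against the pH 4.0 minus pH 2.0 difference shows the members as a band to the left that is centred on 0 in the vertical direction. These differences are what chose the genes, so they are described, and no test of them is taken as support.

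**Figure D1:**
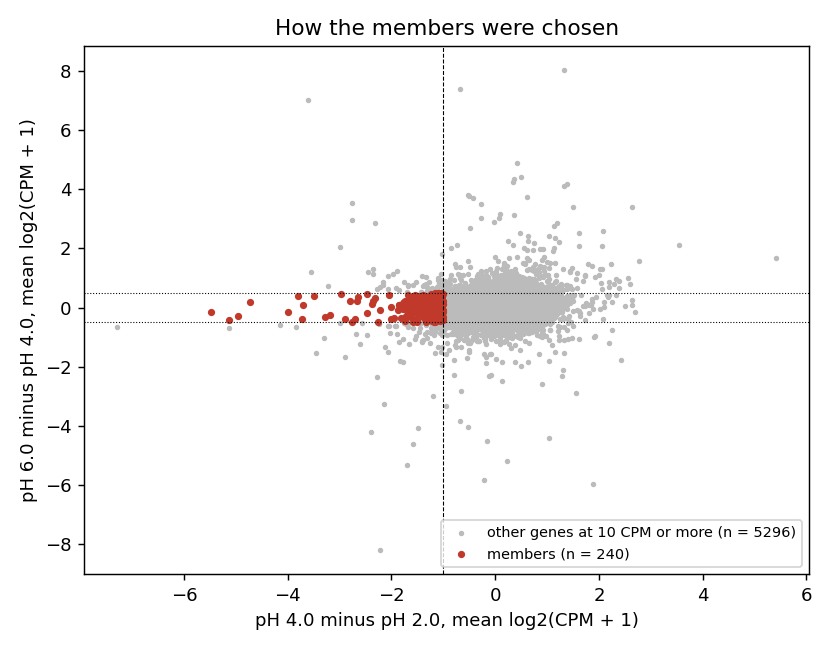
Each point is a gene that reached 10 CPM, placed by the difference between pH 4.0 and pH 2.0 (horizontal axis) and between pH 6.0 and pH 4.0 (vertical axis), both in mean log2(CPM + 1). The 240 members (red) lie left of the dashed line at -1 and between the dotted lines at -0.5 and 0.5.

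The limits cut through a continuous spread. Just inside the first limit lay YALI0A08668g, YALI0B14124g and YALI0D11198g, lower at pH 4.0 by 1.001 to 1.006, and just outside lay YALI0F27533g, YALI0B12914g and YALI0A17512g, lower by 0.991 to 0.998. On the limit between pH 6.0 and pH 4.0, YALI0E06809g (-0.497), YALI0E30679g (0.494) and YALI0A10637g (0.493) were inside. YALI0C23727g lay on the limit and was outside, as were YALI0D25872g (-0.504) and YALI0C02431g (-0.506). At the level limit, YALI0F12925g, YALI0D17644g and YALI0E16390g were inside at 10.02 to 10.27 CPM, and YALI0A18964g, YALI0C08701g and YALI0B22748g outside at 9.79 to 9.93 CPM. Another 50 identifiers met both difference limits but stayed under 10 CPM.

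Most members differed by little more than the limit, and a few by far more. The median difference between pH 2.0 and pH 4.0 was 1.30 on the log2(CPM + 1) scale, with quartiles of 1.14 and 1.58 and a highest value of 5.47. Of the 240, 75 differed by at least 1.5, 28 by at least 2, 11 by at least 3 and 2 by at least 5. The median over all 5536 identifiers at 10 CPM was 0.00. Because each library was made from a whole culture, more transcript per cell and more cells with the transcript cannot be told apart.

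In total the members took a small share of the transcripts, which was larger at pH 2.0. Their summed level was 38705, 27828 and 29993 CPM in pH 2.0 libraries A, B and C, or 4.28%, 3.06% and 3.32% of the column sums. At pH 4.0 and pH 6.0 the sums lay between 10807 and 13112 CPM, or 1.03% to 1.26%. The 8 most abundant members supplied 51.6% of the mean sum at pH 2.0, and YALI0E25982g alone supplied 20.7%.

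The members fell into broad classes of level. At pH 2.0, 60 had a mean under 20 CPM, 85 lay between 20 and 50 CPM, 48 between 50 and 100 CPM, 42 between 100 and 1000 CPM, and 5 above 1000 CPM. Outside pH 2.0, taking the higher of the pH 4.0 and pH 6.0 means, 2 members were under 1 CPM, 34 between 1 and 5 CPM, 50 between 5 and 10 CPM, 135 between 10 and 100 CPM, and 19 above 100 CPM. No member was at 0 reads in any library. In the milder media YALI0B00682g and YALI0C05236g had libraries with 3 reads or fewer, the count taken as the floor. YALI0B00682g had 1, 3 and 2 reads in the pH 6.0 libraries, so it was not above the floor there.

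The 3 largest differences belonged to genes that stayed under 5 CPM outside pH 2.0. YALI0C06259g, first in rank, was at 196, 65.9 and 77.2 CPM in pH 2.0 libraries A, B and C. It was at 1.06 to 1.71 CPM in the pH 4.0 libraries and 0.992 to 1.13 CPM in the pH 6.0 libraries. The lowest pH 2.0 library was thus far above the highest of the other 6, and library A was far above B and C.

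YALI0C21274g had the same shape, at 266, 66.4 and 88.8 CPM at pH 2.0 against 1.87 to 3.05 CPM at pH 4.0 and 1.10 to 2.05 CPM at pH 6.0. For YALI0B16852g the pH 2.0 values were 97.8, 43.2 and 56.9 CPM, and the other libraries gave 0.548 to 1.64 CPM. Those 3 members differed between pH 2.0 and pH 4.0 by 5.47, 5.13 and 4.96 on the log2(CPM + 1) scale. With pH 2.0 libraries B and C alone the differences were 4.99, 4.54 and 4.64.

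The next in rank kept a measurable level in the milder media. YALI0E18700g reached 653, 169 and 345 CPM at pH 2.0 and stayed at 10.9 to 14.3 CPM in the other 6 libraries (log2 difference between pH 2.0 and pH 4.0 of 4.72). YALI0E32967g was at 774, 296 and 342 CPM against 23.3 to 38.9 CPM (log2 3.71). In both, all pH 2.0 libraries lay clearly above the rest, and library A was again the highest. From B and C alone the log2 differences were 4.24 and 3.29.

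YALI0A03421g was at 175, 59.2 and 99.1 CPM at pH 2.0 and at 4.38 to 6.07 CPM elsewhere. YALI0A05665g was at 76.3, 42.3 and 46.3 CPM against 2.68 to 4.63 CPM, and YALI0D01716g at 167, 95.0 and 86.2 CPM against 12.4 to 23.4 CPM. The last 2 were somewhat higher at pH 6.0 than at pH 4.0, with no overlap between those groups. Their log2 differences between pH 2.0 and pH 4.0 were 4.00, 3.80 and 2.96 in that order, and 3.61, 3.54 and 2.67 from B and C alone.

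YALI0A20438g had an even level: 60.5, 50.2 and 48.4 CPM at pH 2.0, against 2.83 to 3.58 CPM at pH 4.0 and 2.40 to 4.57 CPM at pH 6.0. Its means at pH 2.0, pH 4.0 and pH 6.0 were 53.0 ± 6.55, 3.15 ± 0.385 and 3.49 ± 1.08 CPM (SD, n = 3 each), a linear ratio of 16.9 against pH 4.0 and 15.2 against pH 6.0. Library A exceeded the mean of B and C by 0.29 in log2 here and by -0.22 in YALI0B00682g, against 0.77 to 2.62 in the other 10 of the 12. Without library A the log2 difference of YALI0A20438g was 3.60 against 3.70 with it.

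For 3 leading members the low groups came down to few reads or the high group was uneven. YALI0B00682g had 187, 148 and 320 reads in the pH 2.0 libraries and 13, 5, 1, 1, 3 and 2 reads in the others, so some lay at or under the floor of 3 reads and no ratio is given. YALI0C05236g had 371, 137 and 193 reads at pH 2.0 and 1 to 14 reads elsewhere. YALI0A02783g was at 57.5, 4.61 and 15.2 CPM at pH 2.0, a wider spread than in any other member, against 0.298 to 1.98 CPM elsewhere. These 3 differed by 3.28, 3.17 and 3.50 in log2(CPM + 1) with all libraries, and by 3.36, 2.81 and 2.63 from B and C alone. Their pH 4.0 means were 0.459, 0.633 and 0.565 CPM, under the 1 added before taking log2. The size of these differences therefore depends strongly on that addition. The plot of the 12 leading members shows these spreads beside one another.

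**Figure D2:**
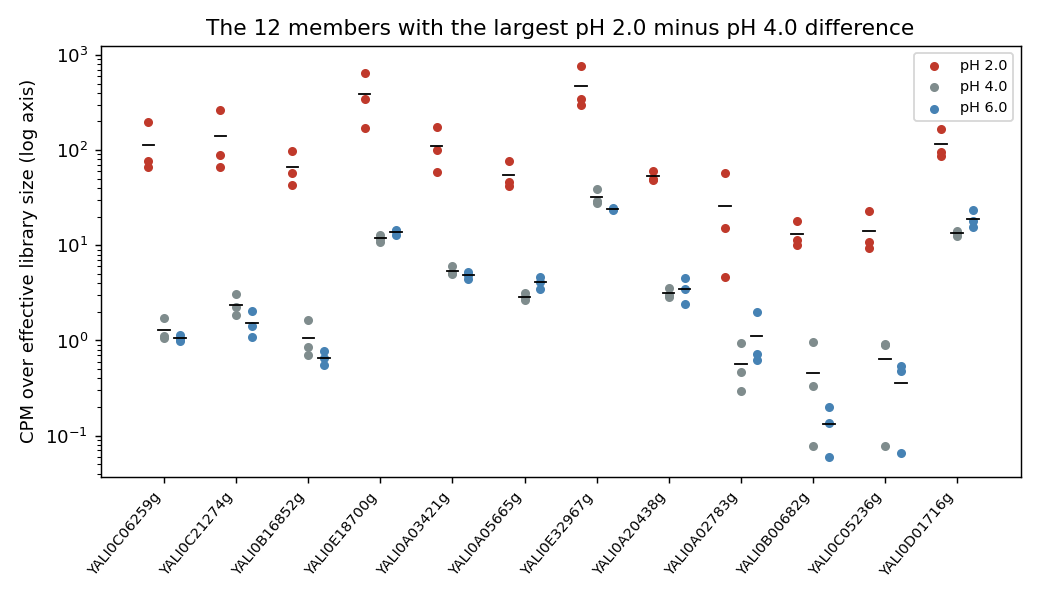
Points are single libraries and bars are group means of the 12 members with the largest difference, on a logarithmic axis of CPM over effective library size. In every gene the 3 pH 2.0 points lie above all other points. In YALI0B00682g and YALI0C05236g the points of the other groups, 1 to 14 reads each, are widely scattered, and YALI0A02783g at pH 2.0 spans 4.61 to 57.5 CPM.

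The most abundant members differed by smaller factors. YALI0E25982g was at 6323, 6605 and 7029 CPM at pH 2.0, at 3095, 4083 and 2749 CPM at pH 4.0 and at 2328, 2541 and 2543 CPM at pH 6.0. Its means were 6652 ± 355, 3309 ± 692 and 2471 ± 123 CPM (SD, n = 3 each), or 2.01 times the pH 4.0 level and 2.69 times the pH 6.0 level. Here library A was the lowest of the 3 at pH 2.0, and the pH 6.0 libraries all lay below those of pH 4.0.

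YALI0F05940g was at 4636, 2630 and 2687 CPM at pH 2.0, 1123 to 1202 CPM at pH 4.0 and 1029 to 1173 CPM at pH 6.0. YALI0B15510g was at 2347, 1126 and 1367 CPM against 268 to 348 CPM at pH 4.0 and 255 to 380 CPM at pH 6.0. With means of 1613 ± 647, 297 ± 44.4 and 323 ± 63.0 CPM, it had the largest factor of the 8 most abundant members, 5.43 against pH 4.0.

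YALI0A10362g had means of 1445 ± 157, 698 ± 68.6 and 769 ± 89.4 CPM in the order of rising pH. YALI0E27896g had 1021 ± 184, 402 ± 72.2 and 315 ± 19.4 CPM, and YALI0D07480g 959 ± 264, 324 ± 38.8 and 395 ± 25.8 CPM. The last of these was slightly higher at pH 6.0 than at pH 4.0 and the one before it slightly lower, both within the limit of 0.5 in log2. YALI0B20306g followed with 957 ± 241, 280 ± 17.9 and 205 ± 12.6 CPM, and YALI0C02981g with 648 ± 134, 242 ± 34.7 and 221 ± 16.6 CPM. Across these 8 members the pH 2.0 mean was 2.01 to 5.43 times that of pH 4.0. From pH 2.0 libraries B and C alone the log2 difference of YALI0B15510g was 2.07 against 2.37 with all 3, that of YALI0F05940g 1.19 against 1.46, and that of YALI0A10362g 0.98 against 1.05, just under the limit. The other 5 lay between 1.06 and 1.55.

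All 3 pH 2.0 libraries lay above the other 6 in 237 of the 240 members. Over the 5536 identifiers at 10 CPM this held for 27.5%; the rule used the same contrast, so the count describes the choice. The exceptions were YALI0C02827g, YALI0E17083g and YALI0F21637g. In YALI0C02827g, pH 2.0 libraries A, B and C were at 17.5, 8.21 and 11.2 CPM, against up to 9.20 CPM at pH 6.0. YALI0F21637g was at 25.2, 8.82 and 11.1 CPM against up to 9.45 CPM at pH 6.0. YALI0E17083g was at 56.2, 34.1 and 10.9 CPM, while pH 4.0 library C stood at 14.6 CPM. Without pH 2.0 library A, YALI0C02827g and YALI0F21637g were 0.77 and 0.59 above pH 4.0 in log2, under the limit of 1.

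edgeR's quasi-likelihood test on the recovered reads called all 240 members lower at pH 4.0 than at pH 2.0 (adjusted p under 0.05), where 32.6% of the 6170 rows were called. All 240 passed the filter on low reads, as did every row. The members were picked for this difference, and nothing is read from the count.

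Between pH 4.0 and pH 6.0 the members were near one another by choice, but not all were level. The pH 6.0 mean was lower in 131 and higher in 109, with a median difference of -0.03 and quartiles of -0.25 and 0.19 on the log2(CPM + 1) scale. It lay within 0.1 in 64 members and within 0.25 in 135. All pH 6.0 libraries were below all pH 4.0 libraries in 51 members (31.5% over all identifiers at 10 CPM) and above them in 37 (32.6%), and the libraries overlapped in 152. edgeR called 29 members lower at pH 6.0 (26.0% of all rows) and 11 higher (25.5%). The limit of 0.5 removes larger differences, and the rule used this contrast, so nothing is read from these shares.

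YALI0E27203g shows the upper edge of this range, a gene singled out after its values were seen. It was at 564, 610 and 689 CPM at pH 2.0, at 293, 354 and 276 CPM at pH 4.0, and at 469, 424 and 389 CPM at pH 6.0. Its pH 6.0 level thus lay between the other groups, without overlap with either, and its pH 2.0 mean was 1.46 times the pH 6.0 mean.

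**Figure D3:**
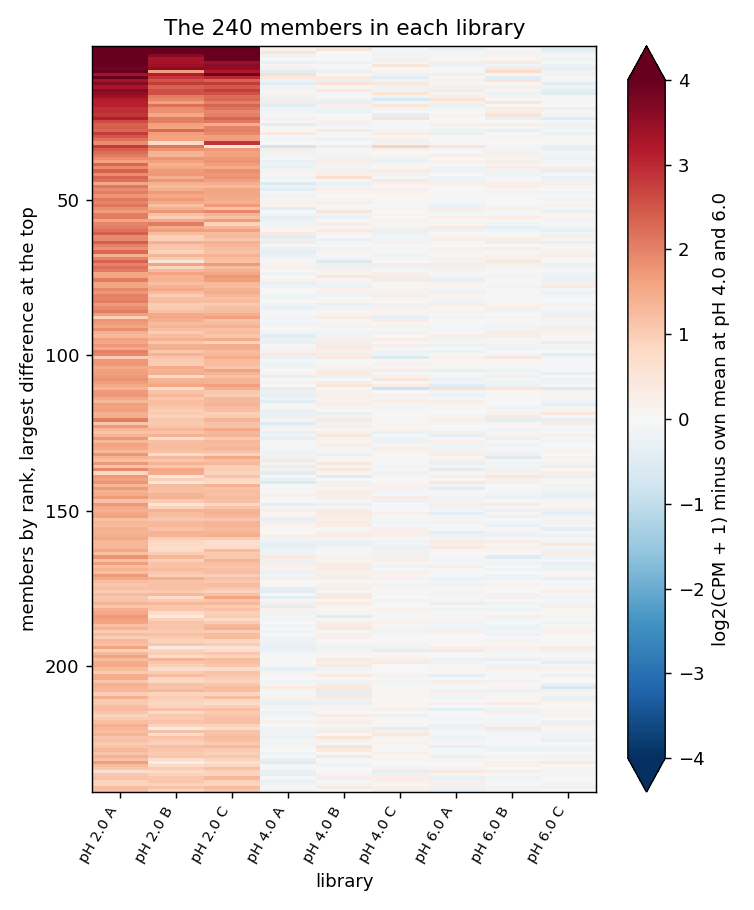
Rows are the 240 members ordered by the pH 2.0 minus pH 4.0 difference, and columns are the 9 libraries; colour gives log2(CPM + 1) minus the member's own mean over the pH 4.0 and pH 6.0 libraries. The 3 pH 2.0 columns are red in nearly all rows, and the first of them, library A, is the highest of the 3 in 191 rows.

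The members were uneven between the pH 2.0 libraries, and the source of this spread was not tested. The median SD of log2(CPM + 1) over the 3 pH 2.0 libraries was 0.24 in the members, against 0.17 at pH 4.0 and 0.11 at pH 6.0. Over all 5536 identifiers at 10 CPM the medians were 0.10, 0.13 and 0.09. In 59 members the pH 2.0 SD was under 0.1, in 78 between 0.1 and 0.3, in 61 between 0.3 and 0.5, and in 42 above 0.5.

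Much of this spread ran in 1 direction. Library A was the highest pH 2.0 library in 191 members (79.6%), C in 38 (15.8%) and B in 11 (4.58%). Over all identifiers at 10 CPM the shares were 34.9%, 30.9% and 34.1%. Library A exceeded the mean of B and C by a median of 0.38 in log2 in the members and by -0.01 over all identifiers. The excess was 0.5 or more in 99 members (41.2%), against 4.77% of all identifiers, and 1 or more in 22 members (9.17%), against 0.957%. Applied without pH 2.0 library A, the rule gave 193 genes, 184 of them members, with a median SD of 0.09 over B and C.

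**Figure D4:**
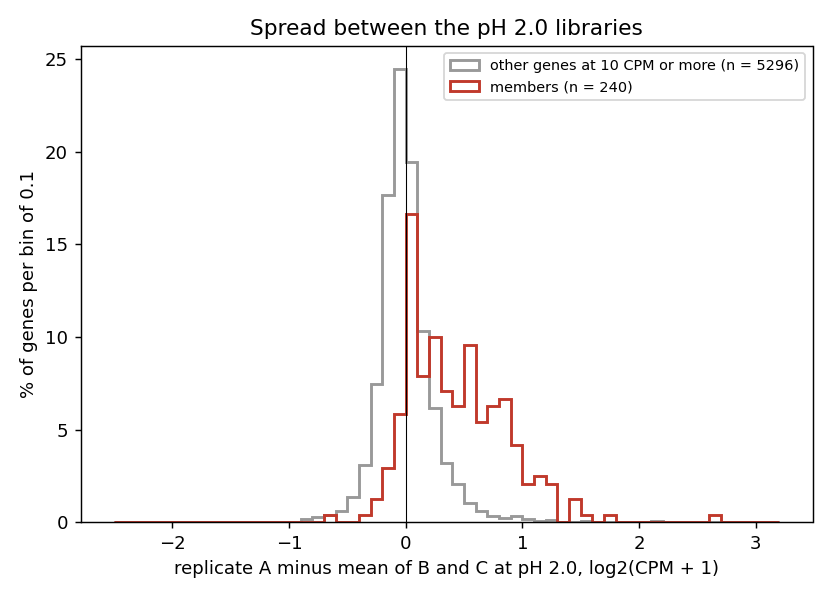
Outlines give the percentage of genes per bin of 0.1 against the level in pH 2.0 library A minus the mean of libraries B and C, in log2(CPM + 1). The other genes centre on 0, and the 240 members (red) reach to the right, with 99 of them at 0.5 or more.

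The same excess showed when library A took no part in the choice. The rule applied to libraries B and C of each pH gave 169 genes, 153 of them members. In these 169, library A was the highest pH 2.0 library in 128 (75.7%), against 34.5% of all identifiers, with a median excess over B and C of 0.30. The genes chosen without the B libraries (308) had library B highest in 14 (4.55%), against 34.1% of all identifiers. Those chosen without the C libraries (256) had library C highest in 32 (12.5%), against 30.8%. Library A took part in both of these choices, so a low place of the library left out is partly built in.

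Members with larger differences had a larger excess in library A. Among the 102 members with the smallest difference between pH 2.0 and pH 4.0, the median excess of A was 0.17. It was 0.35 in the next 63, which ended at a difference of 1.5, 0.60 in the 47 between 1.5 and 2, and 0.97 in the 28 at 2 or more. Because library A enters the pH 2.0 mean, excess and difference share a library, and this order is a description. Libraries B and C alone gave a difference of at least 1 in 58 of the 102, 62 of the 63, all 47 and all 28. Over all members, 195 kept a difference of at least 1 from B and C alone, and the members' median difference went from 1.30 to 1.18.

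High values in library A were not limited to the members. Of the 264 identifiers at 10 CPM in which A exceeded B and C by 0.5 or more, 99 (37.5%) were members and 164 (62.1%) were among the 381 that were lower at pH 4.0. The 81 genes that were lower again at pH 6.0 had a median excess of 0.39, and the 60 that were higher again 0.68, beside 0.38 in the members. The difference between these sets was not tested. Transcripts of the 14 mitochondrial protein genes also differed between the pH 2.0 libraries, with sums of 328, 191 and 93.9 CPM in A, B and C. Their part in the members' spread was not tested.

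The 5 members with the widest spread did not share 1 pattern. YALI0A02783g, YALI0C21274g and YALI0E18700g, given above, were highest in library A and lowest in B. YALI0F11275g was highest in library C, at 110, 51.2 and 222 CPM, against 27.2 to 31.8 CPM in the other 6 libraries. YALI0E17083g was lowest in library C at pH 2.0 and highest in library C at pH 4.0. In the first 4 the pH 2.0 libraries did not overlap with the rest, and in the last they did.

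At the other end, 59 members were even across the pH 2.0 libraries. Their median difference between pH 2.0 and pH 4.0 was 1.14 and the highest 1.77, against 1.30 and 5.47 over all members. YALI0C04477g was at 518, 496 and 473 CPM at pH 2.0, 123 to 164 CPM at pH 4.0 and 123 to 156 CPM at pH 6.0, a linear ratio of 3.42 and 3.53. YALI0F22957g was at 31.2, 30.3 and 31.1 CPM against 9.38 to 13.7 CPM, and YALI0E28358g at 17.7, 17.4 and 17.6 CPM against 4.90 to 7.75 CPM. These 3 were picked after their values were seen, as examples with a small SD at pH 2.0 and no overlap with the other groups.

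When the rule was applied to 6 libraries, most genes it chose were also higher at pH 2.0 in the 3 left out. The limit of 1 is large beside the median SD within a group, 0.09 to 0.13 over all identifiers. Such a choice nearly fixes the direction in a further library of the same pH, so this is a description and not independent support. Of the genes chosen without A, B and C, 153, 226 and 204 were members. The closeness of pH 6.0 to pH 4.0 was nearer to its share over all identifiers. Of the 169 genes chosen without the A libraries, all 169 were higher in pH 2.0 library A than in both pH 4.0 A and pH 6.0 A, against 39.8% of all identifiers. Of the 308 chosen without the B libraries, 305 were higher in pH 2.0 B than in the other B libraries (38.3% of all), and of the 256 chosen without C, 253 were higher in C (41.1% of all). The size held less well than the direction. The difference from pH 4.0 was at least 1 in 164 genes (97.0%) in A, 149 (48.4%) in B and 167 (65.2%) in C, with medians of 1.74, 0.97 and 1.14. The level at pH 6.0 lay within 0.5 of pH 4.0 in 82.2%, 73.4% and 84.8% of them, against 68.1%, 70.0% and 76.9% of all identifiers.

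The members were spread over all 6 chromosomes named in the identifiers. Chromosome A held 30 members, 12.5% of the members against 9.81% of all g identifiers. The counts were 30 on B (12.5% against 15.1%), 26 on C (10.8% against 14.1%), 44 on D (18.3% against 17.3%), 58 on E (24.2% against 22.9%) and 52 on F (21.7% against 20.8%). The share of a chromosome's identifiers that were members ran from 3.02% on C to 4.99% on A, beside 3.92% over all. Of the 37 chromosome A identifiers that were lower at pH 4.0, 30 (81.1%) were members, against 54.2% to 64.2% on the other chromosomes; this difference was not tested.

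**Figure D5:**
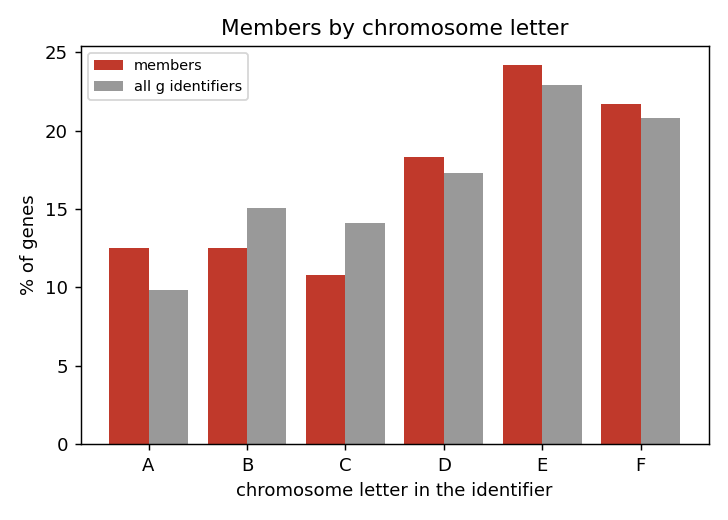
Bars start at 0 and give the percentage of the 240 members (red) and of all 6127 g identifiers (grey) that carry each chromosome letter. The pairs of bars are of similar height, from 10.8% and 14.1% on C to 24.2% and 22.9% on E.

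Few members were neighbours. Ordered by identifier within a chromosome, 22 members (9.17%) stood directly beside another member, and 450 of the 5887 other g identifiers (7.64%) stood beside a member. The 22 formed 11 pairs and no longer run. Without pH 2.0 library A the count of neighbouring members was 12, and without pH 4.0 library B it was 34. Within 30 identifiers of a chromosome end lay 15 of the 240, which is 4.17% of the 360 identifiers counted there, close to the 3.92% over all.

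Some pairs differed between pH 2.0 and pH 4.0 by like amounts. Over all members the quartiles of this difference were 1.14 and 1.58, so nothing is read from the likeness. YALI0C02959g and YALI0C02981g differed between pH 2.0 and pH 4.0 by 1.35 and 1.41 in log2, although their pH 2.0 means were 47.7 and 648 CPM. YALI0E34881g and YALI0E34903g differed by 1.15 and 1.11, with pH 2.0 means of 192 and 32.4 CPM. The gene on either side of these pairs differed by -0.86 to 0.07, so they did not reach the limit.

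YALI0E03124g and YALI0E03146g differed by 1.76 and 2.48, and YALI0F01925g and YALI0F01947g by 1.78 and 2.31. Both pairs had high values in pH 2.0 library A, which exceeded B and C by 0.73 to 1.28 in log2. From B and C alone the differences were 1.51 and 2.05, and 1.54 and 1.96. The genes beside these 2 pairs also had positive differences, 0.27 and 0.45 for the former and 0.43 and 0.59 for the latter, under the limit of 1.

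In the remaining 7 pairs the differences were 1.02 to 2.01. They were YALI0A03597g with YALI0A03641g, YALI0A18029g with YALI0A18040g, YALI0D26642g with YALI0D26664g, YALI0E30657g with YALI0E30679g, YALI0E34507g with YALI0E34529g, YALI0F20570g with YALI0F20592g, and YALI0F22957g with YALI0F23023g. YALI0A18029g and YALI0A18040g carry numbers only 11 apart, where most pairs are 22 apart. The numbers of YALI0A03597g and YALI0A03641g are 44 apart, and those of YALI0F22957g and YALI0F23023g 66 apart. Whether a locus absent from the g identifiers lies between them was not examined. Reads shared between overlapping genes were not examined, and the strand setting of the counting is not known.

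The deposited scaling bears on how many genes count as high only at pH 2.0. The column sums were 904216 to 910806 CPM at pH 2.0 and 1010486 to 1094635 CPM in the other libraries. Scaling each library to the same total raised the median of all identifiers at 10 CPM by 0.20 in log2 at pH 2.0 relative to pH 4.0, and 402 genes then met the rule. These included 239 of the 240 members. With quantile normalization 181 genes met it, 146 of them members.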

How the data were processed

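The authors' deposited table holds 1 column for each of the 9 libraries. Per the file headers, its signal is the read count of a gene in CPM, normalized by edgeR to the effective library size. The submitters' processing notes list edgeR, HTSeq, TopHat2 2.0.10, Trimmomatic 0.30 and bcl2fastq 1.8.4. What each tool did, the genome build and any strand setting of the counting are details not given in the sources used here. For that reason, values of overlapping or near-identical genes are uncertain.

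Levels were compared as log2(CPM + 1), which understates differences of weakly expressed genes. In every library 100% of the values were whole multiples (tolerance 0.01 reads) of the worth of 1 read, 0.0563 to 0.0779 CPM, which gave 12974822 to 17701766 reads per library. Counting error was small beside the spread between libraries of a group except where a gene had few reads. A count of 3 reads was taken as the floor (0.169 to 0.234 CPM). On these reads edgeR 4.0.16 (R 4.3.3) was run after the table had been seen. It used the quasi-likelihood test, trimmed-mean scaling and Benjamini-Hochberg adjustment over 6170 rows, with a threshold of 0.05. It called 3915 rows as differing between pH 4.0 and pH 2.0. A check on simulated data gave all genes the same dispersion, so it does not cover the unequal spread between these libraries.

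Between pH 4.0 and pH 6.0 the deviations of same-letter libraries correlated positively across genes (r = 0.36, 0.13 and 0.15 for A, B and C). Between pH 2.0 and the other groups r ran from -0.21 to 0.16. No label says that a letter marks a shared batch, and these correlations do not establish it. A fit with the letter as a block is among the alternatives.

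The members and lists were chosen with earlier results of these data known. Differences between pH values chose the members, so edgeR's calls on these contrasts are given for description only and are not support. Named members are the 12 with the largest difference, the 8 with the highest level and the 5 with the largest spread at pH 2.0, the members in runs of neighbours, those nearest each limit, and exceptions singled out after their values were seen. The design's rule asked for the 3 longest runs; all runs were equally long, so all are named. Locus lists drawn up from general knowledge held 1 member among 73 measured loci, beside 3.92% of all g identifiers that are members. No role or conclusion is taken from them. Neither the table nor the reference annotates the identifiers (0 of 6127 matched among 8689 reference genes of a CLIB89(W29) assembly). Alternatives were other pseudocounts, scalings and limits, and leaving out each library.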

Additional observations from a re-analysis of the deposited data

How the results depend on the processing

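The number of members (240), those without overlap (237), those highest in pH 2.0 library A (191), those beside another member (22), the median difference (1.30) and the median SD at pH 2.0 (0.24) were recomputed under each alternative. Scaling to equal totals gave 402 members, 397 without overlap, 301 highest in A and 67 beside another. A minimum of 50 CPM gave 95, 95, 79 and 4, and a limit of 0.25 between pH 6.0 and pH 4.0 gave 135, 134, 105 and 6. A difference of 2 or more gave 28, 28, 27 and 0, with a median difference of 2.78 and SD of 0.57. A difference of 0.5 or more gave 795, 749, 531 and 242, with 0.79 and 0.13. Those beside another member were 14 with a pseudocount of 5 and 42 with a limit of 1 between pH 6.0 and pH 4.0. Each limit changes the counts by its own construction; for the scaling and the pseudocount the cause was not tested. Leaving out single libraries gave an SD of 0.09 to 0.30 and 12 to 34 members beside another, and 193 to 277 members; without pH 2.0 library A no gene can be highest in it. The genes chosen without 1 letter had a median difference of 0.97 to 1.74 in the libraries left out.

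Between pH 2.0 and the other groups, the deviations of same-letter libraries had no common direction (r from -0.21 to 0.16). With the letter as a replicate block, edgeR called 240 members lower at pH 4.0. That fit called 3859 of the 6170 rows in either direction, and its shares of all rows by direction were not counted. Without the block, 32.6% of the rows were called lower at pH 4.0. Between pH 6.0 and pH 4.0, 204 members were not called, against 200 without the block and 152 by overlap. The rule used both contrasts, so nothing is read from these counts. The block, fitted over all 9 libraries, changed the calls at pH 6.0 against pH 4.0 from 29 to 28 lower and from 11 to 8 higher.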
